A study of Mus musculus with 6 samples.

Results

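The 6 protein-coding transcripts of mitochondrial DNA (mtDNA) that serve complexes III, IV and V of the respiratory chain were compared between brains of D21 pups after a maternal high-fat diet (MHFD) and a maternal normal diet (MND). They were chosen by gene identifier, with earlier results of these data known. All 6 of 6 were found among the 32623 genes of the deposited table and passed the filter on low counts. In the order used here they are mt-Cytb (ENSRNOG00000031766), mt-Co1 (ENSRNOG00000034234), mt-Co2 (ENSRNOG00000030371), mt-Co3 (ENSRNOG00000030700), mt-Atp6 (ENSRNOG00000031979) and mt-Atp8 (ENSRNOG00000033299). The names came with the list of identifiers. Neither the table nor the mouse reference at hand pairs rat identifiers with symbols, so the names were not checked, and no rat sequence, length or map position is given.

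The MHFD group was 3 pups whose mothers ate a high-fat diet from before mating to the end of lactation, and the MND group was 3 pups whose mothers ate normal feed over the same stages. The time before mating, as the study words it, was not the same for both groups. All 6 brains were taken at postnatal day 21, the labels name no other treatment, and each gave a library of its own. The study describes Sprague-Dawley rats, whereas the sample labels name the mouse strain C57BL/6; every identifier in the table is a rat identifier. Neither source gives the brain region, the litter of each pup or the share of cell types. The p-values here set the difference between groups against variation between libraries, not between mothers. Pups that share a mother would not be independent units of the maternal diet. Marker genes of brain were not looked up, for want of symbols.

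Mitochondria carry a small circular genome that encodes core membrane subunits of the respiratory chain, while all other subunits are encoded in the nucleus and imported. Complex III passes electrons from ubiquinol to cytochrome c, complex IV uses them to reduce oxygen, and complex V turns the resulting proton gradient into ATP. The 6 transcripts are cut from long precursors read from the heavy strand of mtDNA. Neurons depend heavily on this pathway, and mtDNA transcripts are among the most abundant of brain RNA.

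The 6 transcripts held between 9.11% and 12.9% of all counts, and the share was larger in 2 of the 3 MHFD brains than in any MND brain. Their summed share of the library total was 9.50%, 12.0% and 12.9% in MHFD replicates 1, 2 and 3. In MND replicates 1, 2 and 3 it was 9.41%, 9.11% and 10.5%. MHFD replicate 1 thus lay inside the MND range, and the groups overlapped. The MHFD mean of 11.5 ± 1.75% was 18.5% above the MND mean of 9.67 ± 0.729% (SD, n = 3 each). Without MHFD replicate 1 it was 28.7% above, and without MHFD replicate 3 it was 11.3% above. No test was made on this sum, since the 6 genes were picked as a set. In RNA of whole tissue, a change in the mix of cells and a change in mtDNA transcript per cell cannot be told apart.

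**Figure D1:**
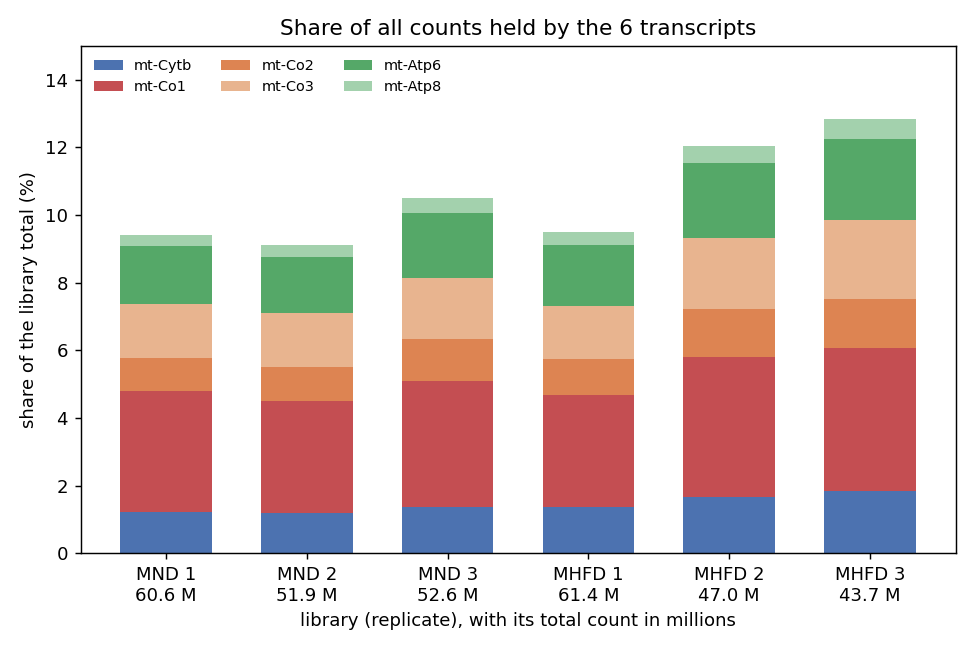
Share of all counts of each library (y axis, %) held by the 6 transcripts, stacked by gene, with the library's total count under each bar. MHFD replicates 2 and 3 reach 12.0% and 12.9%, while MHFD replicate 1 (9.50%) sits among the MND libraries (9.11% to 10.5%).

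MHFD replicates 3 and 2, with the largest shares, had the smallest totals, 43679373 and 46992467 counts. The other 4 libraries had between 51874000 and 61385917, and among them MND replicate 2 had both the smallest total and the smallest share. The summed count of the 6 transcripts before scaling ran from 4727199 in MND replicate 2 to 5830803 in MHFD replicate 1. It was 5657382 and 5613923 in MHFD replicates 2 and 3. The part of library size in the higher shares was not tested.

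Of complex III, mtDNA encodes only cytochrome b, a haem-bearing subunit at which ubiquinol is oxidised. Its transcript mt-Cytb had 13583, 16559 and 18327 CPM (counts per 1000000 of the TMM-scaled library size) in MHFD replicates 1, 2 and 3. The MND replicates 1, 2 and 3 had 12089, 11903 and 13999 CPM. MHFD replicates 2 and 3 were above every MND brain, and MHFD replicate 1 was below MND replicate 3. The MHFD mean was 16156 ± 2397 CPM and the MND mean 12663 ± 1160 CPM (SD, n = 3 each). The log2 fold change was 0.35 with a standard error of 0.15. This was the smallest p of the 6 transcripts in edgeR's quasi-likelihood test, yet the adjusted p (Benjamini-Hochberg) was 0.574. The 95% interval of the log2 fold change ran from -0.01 to 0.71. As a share of the library total, mt-Cytb took 1.62 ± 0.245% in MHFD brains and 1.26 ± 0.102% in MND brains (SD, n = 3 each; exact permutation test, two-sided, p = 0.2, where 3 against 3 cannot go below 0.1).

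Of complex IV, mtDNA encodes the 3 core subunits. The transcript mt-Co1 encodes the subunit with the haem and copper centre where oxygen is reduced, and it drew the largest count of any gene in the table. It had 33254, 40974 and 42317 CPM in MHFD replicates 1, 2 and 3, against 35766, 32942 and 37731 CPM in the MND replicates in the same order. MHFD replicate 1 was lower than MND replicates 1 and 3, and the other 2 MHFD brains were higher than every MND brain. The log2 fold change of mt-Co1 was the smallest of the 6, at 0.13 with a standard error of 0.14. Its adjusted p was 0.818 from edgeR's quasi-likelihood test. Its 95% interval, from -0.21 to 0.47, covers both a fall and a rise.

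The transcript mt-Co2 encodes the subunit that takes electrons from cytochrome c at a copper site. It had 10712, 13955 and 14509 CPM in MHFD replicates 1, 2 and 3, against 9747, 10027 and 12700 CPM in the MND replicates in the same order. The MND group was as scattered as the MHFD group here, because MND replicate 3 stood above the other 2 MND brains. The log2 fold change was 0.27 with a standard error of 0.17 and an adjusted p of 0.683 from edgeR's test. The transcript mt-Co3, for the core subunit without a metal centre, had 15790, 20874 and 23234 CPM in MHFD replicates 1, 2 and 3. It had 16161, 15748 and 18197 CPM in MND replicates 1, 2 and 3, so the 3 MHFD values lay farther apart than the MND values. The log2 fold change was 0.26 with a standard error of 0.17 and an adjusted p of 0.692 from edgeR's test.

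Of complex V, mtDNA encodes 2 membrane subunits whose reading frames overlap on a shared transcript. They are counted here as 2 of the 6 transcripts, by gene. Reads in the overlap can belong to either, and how they were counted is not given in the sources used here. The transcript mt-Atp6 encodes the subunit that forms the proton path beside the rotor. It had 18172, 21952 and 23851 CPM in MHFD replicates 1, 2 and 3, against 16925, 16626 and 19561 CPM in the MND replicates in the same order. The log2 fold change was 0.27 with a standard error of 0.15 and an adjusted p of 0.647 from edgeR's quasi-likelihood test. The transcript mt-Atp8 encodes a short subunit of the membrane stalk. It had 3752, 4815 and 6048 CPM in MHFD replicates 1, 2 and 3, against 3391, 3536 and 4425 CPM in the MND replicates in the same order. MHFD replicate 3 stood well above every other library for mt-Atp8. It had the largest fold change and the largest error of the 6, a log2 fold change of 0.36 with a standard error of 0.20 and an adjusted p of 0.647 from edgeR's test.

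**Figure D2:**
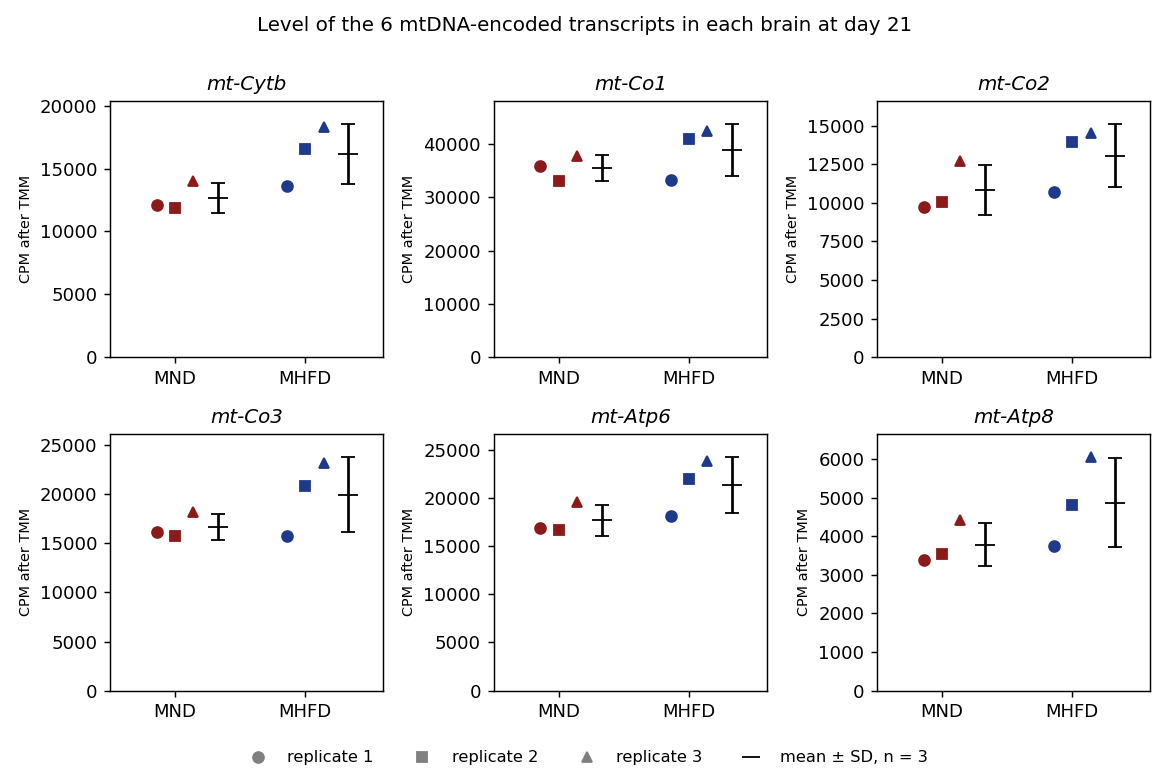
CPM after TMM scaling (y axes, from 0) of each transcript in the 3 MND and 3 MHFD brains, with the symbol shape giving the replicate and the bar the mean ± SD. In all 6 panels MHFD replicates 2 and 3 lie above the MND brains and MHFD replicate 1 lies among them.

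As shares of the library total, the other 5 transcripts gave the same picture. The share was 3.90 ± 0.507% against 3.53 ± 0.208% for mt-Co1 and 1.31 ± 0.211% against 1.08 ± 0.151% for mt-Co2, MHFD group first (SD, n = 3 each). It was 2.004 ± 0.388% against 1.66 ± 0.113% for mt-Co3, 2.14 ± 0.297% against 1.76 ± 0.142% for mt-Atp6 and 0.489 ± 0.116% against 0.377 ± 0.0518% for mt-Atp8. The groups overlapped for each of them. The exact permutation test (two-sided) gave p = 0.3 for mt-Co1, p = 0.4 for mt-Co3 and p = 0.2 for mt-Co2, mt-Atp6 and mt-Atp8. Counted against all other genes the mean differences would be a little wider, 31.4% for mt-Cytb and 12.8% for mt-Co1 when the 6 transcripts are left out of the library total, compared with 28.6% and 10.3%.

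After adjustment, edgeR's quasi-likelihood test called 0 of the 6 transcripts and 1 of all 16776 tested genes (0.00596%). Before adjustment, 0 of the 6 transcripts and 8.68% of all tested genes passed the level of 0.05. The transcript nearest to it was mt-Cytb, at 0.0536. CPM of the groups did not overlap for 0 of the 6, against 13.9% of all tested genes. All 6 log2 fold changes were above 0, as were 50.5% of those of all tested genes. Their median was 0.27, against 0.00 over all tested genes. The 6 are not independent of each other, being cut from shared precursors, so the common direction is not a count of 6 separate results. Among the 1956 other genes whose mean reached 100 CPM the median was -0.07, and 35.0% were above 0.

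**Figure D3:**
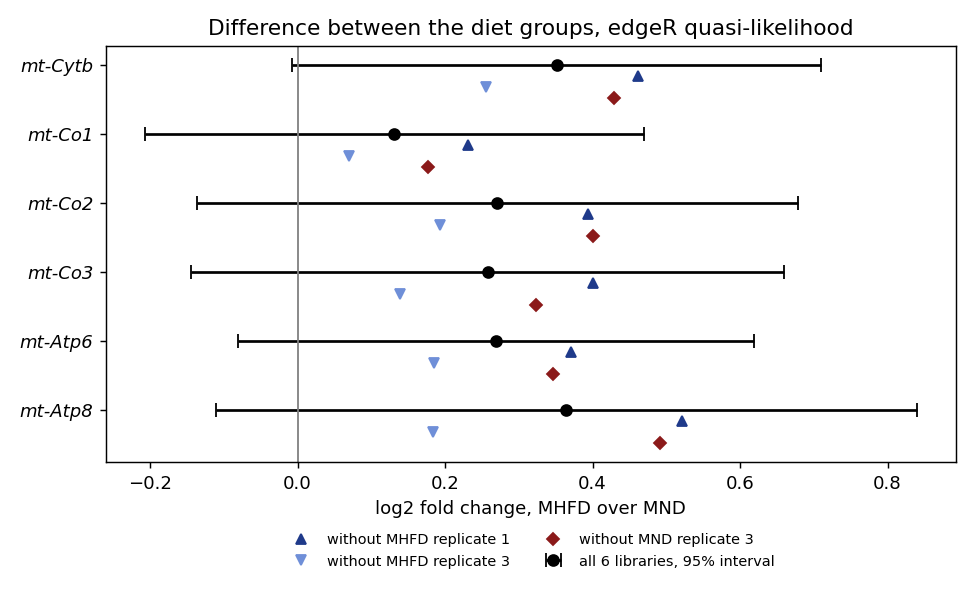
Log2 fold change of each transcript, MHFD over MND (x axis), from edgeR's quasi-likelihood fit with its 95% interval (black), and the estimate without MHFD replicate 1, MHFD replicate 3 or MND replicate 3 (coloured). Every interval includes 0, from -0.01 to 0.71 for mt-Cytb and from -0.11 to 0.84 for mt-Atp8.

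The size of the difference depended on which brains were included. Without MHFD replicate 1, the log2 fold changes were 0.46 for mt-Cytb, 0.23 for mt-Co1, 0.39 for mt-Co2, 0.40 for mt-Co3, 0.37 for mt-Atp6 and 0.52 for mt-Atp8. All 6 then had an unadjusted p under 0.05 and groups that did not overlap, while 17.0% of all genes passed that p and 37.2% did not overlap. For the 6, this lack of overlap only restates the order given above, with MHFD replicates 2 and 3 above every MND brain. Their adjusted p in that fit ran from 0.135 for mt-Cytb to 0.275 for mt-Co1 (edgeR's quasi-likelihood test). Without MND replicate 3, the highest MND brain for all 6, groups did not overlap for 4 of the 6 (28.7% of all genes), and only mt-Cytb had an unadjusted p under 0.05 (10.2% of all genes). Without MHFD replicate 3, the highest brain for all 6, the log2 fold changes were 0.26 for mt-Cytb, 0.07 for mt-Co1, 0.19 for mt-Co2, 0.14 for mt-Co3, 0.19 for mt-Atp6 and 0.18 for mt-Atp8. Without MND replicate 2, that of mt-Co1 was 0.08. There is no ground in the labels to leave out any of these animals.

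The 6 transcripts varied together from brain to brain. Each was highest in MHFD replicate 3, and each was lowest in MND replicate 2 (4 of 6) or MND replicate 1 (2 of 6). Centred on its own mean over the 6 libraries, log2 CPM averaged over the 6 transcripts was 0.34 and 0.20 in MHFD replicates 3 and 2, 0.03 in MND replicate 3, -0.14 in MHFD replicate 1, and -0.21 and -0.22 in MND replicates 1 and 2. The root mean square distance from this common profile was smallest for mt-Atp6 (0.03) and mt-Co3 (0.03). It was largest for mt-Co1 (0.09), which varied less between brains than the common profile, and mt-Atp8 (0.09), which varied more.

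**Figure D4:**
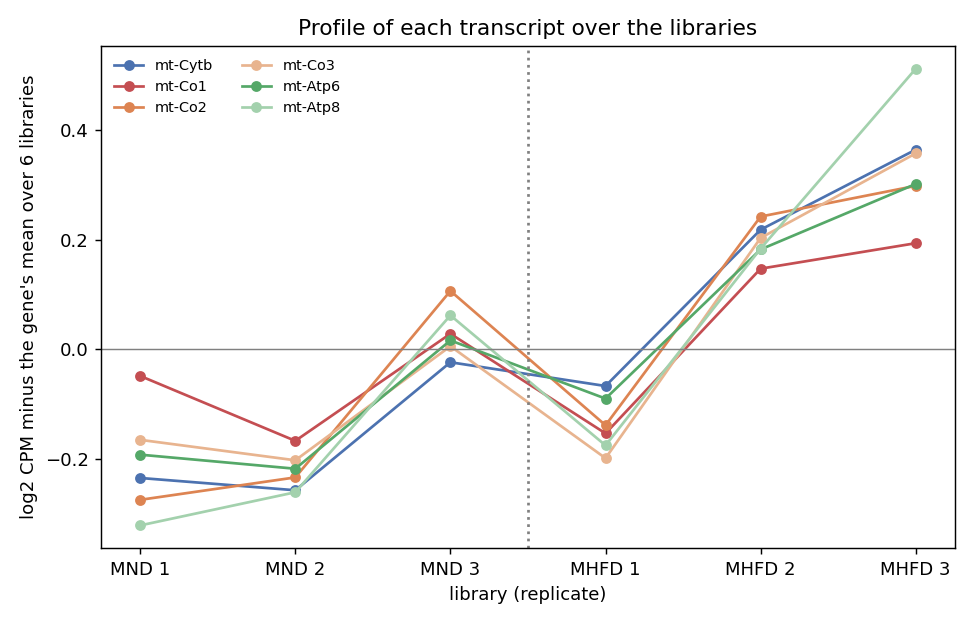
Log2 CPM of each transcript minus its own mean over the 6 libraries (y axis) in each library (x axis). Lines only join the points of a gene, and the libraries of a group have no order. All 6 are highest in MHFD replicate 3, where mt-Atp8 reaches 0.51 and mt-Co1 0.19.

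At these depths counting error is a minor part of the spread between brains, at most 0.233% for the lowest count (184134, of mt-Atp8) if each count were an independent read. The coefficient of variation of mt-Atp8 was 23.6% among MHFD and 14.8% among MND brains. For mt-Co1 the coefficient of variation was 12.6% and 6.78%. The median over the 6 was 15.3% among MHFD and 9.14% among MND brains. Over the 1956 other genes whose mean reached 100 CPM it was 10.4% and 7.97%, and from 60.4% of these genes (for mt-Co1) to 87.9% (for mt-Atp8) varied less between MHFD brains than the transcript did. Between MND brains this was from 42.8% (for mt-Co1) to 78.0% (for mt-Co2), with 49.5% for mt-Co3.

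Set against each other, the counts of the 6 differed between brains in ways that a common scaling of each library leaves untouched. Of the summed count of the 6, mt-Cytb took 14.3%, 13.9% and 14.3% in MHFD replicates 1, 2 and 3, against 12.9%, 13.1% and 13.1% in the MND replicates in the same order. The groups did not overlap, and MHFD replicate 1, which resembled the MND brains in level, lay with the MHFD brains here. The part taken by mt-Co1 was lower in each MHFD brain, 34.9%, 34.4% and 33.0%, than in the MND brains, 38.0%, 36.3% and 35.4%. The part of mt-Atp6 was 19.1%, 18.4% and 18.6% in the MHFD group against 18.0%, 18.3% and 18.3% in the MND group, a gap that is small beside the spread. The means were 14.1 ± 0.215% against 13.0 ± 0.156% for mt-Cytb and 34.1 ± 0.995% against 36.6 ± 1.33% for mt-Co1, MHFD group first (SD, n = 3 each). Parts of mt-Co2, mt-Co3 and mt-Atp8 overlapped between the groups.

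Thus 3 of the 6 parts did not overlap, with 2 larger and 1 smaller in MHFD brains. The same scaling, each gene's count over the summed count of the 6, left 13.1% of all tested genes without overlap, 2.65% higher and 10.4% lower. This is not a like background, since the count of each of the 6 is part of that sum and the count of another gene is not. The parts add up to a whole, so a larger part of mt-Cytb forces smaller parts elsewhere, and a smaller part of mt-Co1 forces larger ones. Which of the transcripts changed cannot be told from the parts. In the 15 ratios between pairs of transcripts, the groups did not overlap in 4, namely mt-Cytb over mt-Co1, mt-Co3 and mt-Atp6, and mt-Co1 over mt-Atp6. Among pairs of the 1956 other genes of high count, 14.9% did not overlap. Those pairs were not chosen for shared precursors, so they are not a like background either. Ratios that share mt-Cytb are not separate results. The count of mt-Cytb over that of mt-Atp6 was 0.748, 0.754 and 0.768 in MHFD replicates 1, 2 and 3, against 0.714, 0.716 and 0.716 in the MND replicates in the same order. The count of mt-Cytb over that of mt-Co1 was 0.408, 0.404 and 0.433 in MHFD replicates 1, 2 and 3, compared with 0.338, 0.361 and 0.371 in the MND replicates. The count of mt-Atp6 over that of mt-Atp8, which share a transcript, was 4.84, 4.56 and 3.94 in MHFD replicates 1, 2 and 3. It was 4.99, 4.70 and 4.42 in the MND replicates in the same order. All these ratios are thus of counts and need not be of transcript amounts, and the part of read assignment in them was not tested. The ratios compare the same pair between brains and do not rank levels, as lengths are not known here. No test was run on them.

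**Figure D5:**
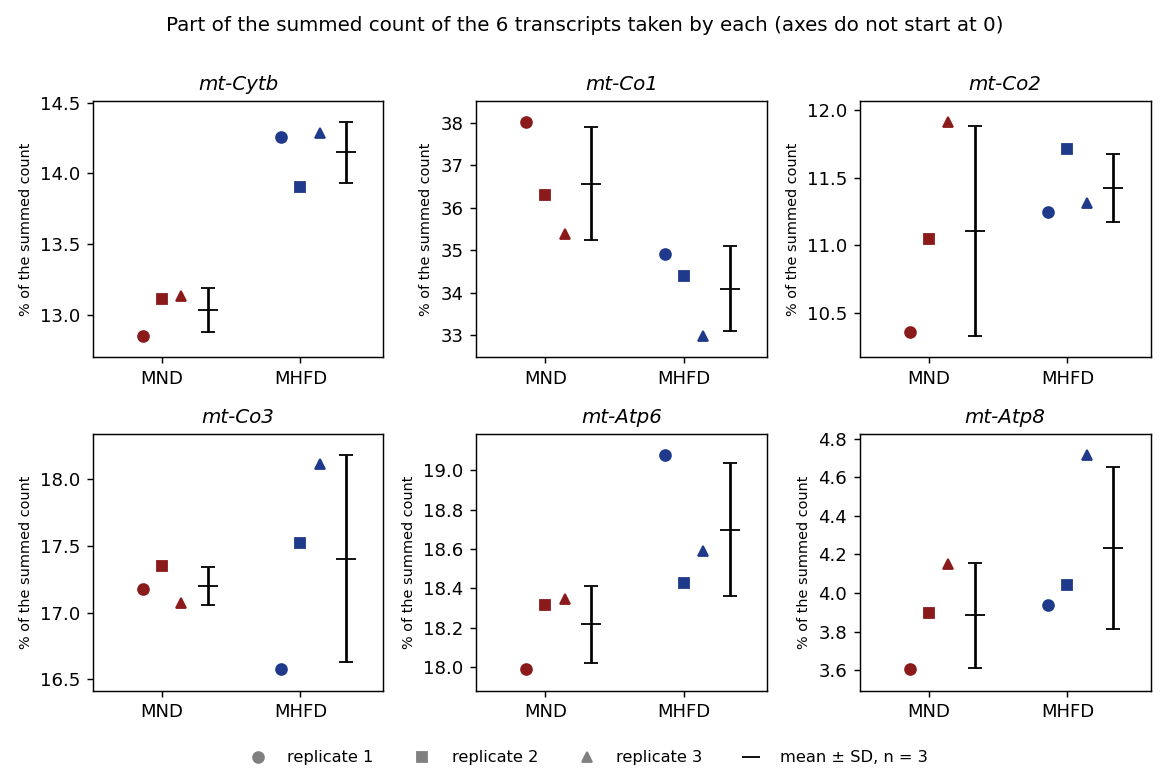
Part of the summed count of the 6 transcripts taken by each (y axes, %, which do not start at 0) in the 3 MND and 3 MHFD brains, with the mean ± SD. The MHFD brains lie above the MND brains for mt-Cytb (13.9% to 14.3% against 12.9% to 13.1%) and below them for mt-Co1 (33.0% to 34.9% against 35.4% to 38.0%).

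Genes outside the 6 were ranked by how near they came to the same profile over the 6 libraries. Among the 1956 candidates whose mean reached 100 CPM, ENSRNOG00000030644 was nearest to the common profile, with a root mean square difference of 0.03 on the log2 scale. It had 11274, 13774 and 15295 CPM in MHFD replicates 1, 2 and 3, against 11095, 10422 and 12408 CPM in the MND replicates in the same order. The next, ENSRNOG00000031033, was 0.04 from the profile, with 12784, 14763 and 17869 CPM in MHFD brains against 11732, 11700 and 14144 CPM in MND brains. Their log2 fold changes were 0.25 and 0.27, with adjusted p of 0.672 and 0.670 from edgeR's test. As these genes were picked for nearness to the profile, fold changes like those of the 6 follow from the choice. The sources used here do not say what these genes encode or whether they too lie on mtDNA. Of the 14 genes with the largest mean share of counts, 6 are the transcripts described here. The other 8 had a median log2 fold change of 0.25, from -0.11 to 0.37, with 6 above 0 and 0 at an unadjusted p under 0.05.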

How the data were processed

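Whole counts per gene and library, without normalization, are what the authors deposited. RNA extraction with Trizol preceded sequencing by a service company. The submitters' processing notes name Bowtie and the mouse build mm10, although all 32623 identifiers are of the rat; 0 of them matched the mouse reference tables. The counting program, annotation, strand setting and treatment of near-identical nuclear copies of mtDNA are not given in the sources used here. The 6 columns were matched to samples by name.

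All genes were fitted in R 4.3.3 with edgeR 4.0.16: filterByExpr (minimum count 10, minimum total 15; 16776 genes), scaling by TMM, then the quasi-likelihood test with diet group as sole term. P-values were adjusted by the Benjamini-Hochberg method over all tested genes. The standard error was taken as the log2 fold change over the square root of F, and intervals are 95%. Log2 CPM used a prior count of 2. Shares were compared by exact permutation tests over samples. The method was tested on simulated counts. Alternatives used DESeq2 1.42.0, limma 3.58.1 and other scalings, filters and sets of libraries.

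The members and gene lists were chosen with earlier results of these data known. The naming rule took all 6 members and the 4 genes of high count nearest to their mean profile; 2 are given, as identifiers without symbols are kept to a few. Lists of complex I, nuclear-encoded subunits, mtDNA expression, assembly factors and cell type markers were not run, for want of symbols. No source used here states that equal replicate numbers in the groups pair animals, so the main fit did not pair them.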

Additional observations from a re-analysis of the deposited data

How the results depend on the processing

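Each of the 6 log2 fold changes kept its sign and an adjusted p above 0.05 under all 17 alternatives (other scalings, tests, filters, counts divided by 4, the replicate block, each library left out). The adjusted p ran from 0.135 to 0.951 for mt-Cytb, the lowest without MHFD replicate 1. The differences in share kept their sign with either other denominator and with each library left out. The number of the 6 at an unadjusted p under 0.05, whose alternatives were chosen after seeing the data, was 0. It was 1 (mt-Cytb) with upper-quartile scaling (8.82% of all genes), library size alone (8.74%), DESeq2's Wald test (10.5%) and edgeR's likelihood-ratio test (8%). With a library left out it ran from 0 to 6, and over all genes from 4.77% to 17.0%. The number without overlap, its alternatives likewise added, then also ran from 0 to 6, and over all genes from 20% to 37.2%.

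Over all genes, the number at an adjusted p under 0.05 was 1. It was 196 with DESeq2's Wald test and 98 with the likelihood-ratio test. It was 0 with limma-voom, 0 with at least 10 counts in every sample, 0 with counts divided by 4 and from 0 to 28 with a library left out; before adjustment, 1424, 1482 and 1371 genes passed in the first 3 of these. Leaving out a library moved the number at an unadjusted p under 0.05 between 818 and 2904, with 464 to 1477 genes higher and 281 to 1427 lower in MHFD brains. The causes were not tested.

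With the replicate number as a block, the number of the 6 at an unadjusted p under 0.05 was 1 (mt-Atp8, log2 fold change 0.35; 6.43% of all genes), and over all genes 0 passed after and 1078 before adjustment. The block changed no other call. The deviations of same-numbered libraries correlated across genes at -0.09, 0.00 and -0.14 for replicates 1, 2 and 3.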
